A study of Mus musculus with 2 samples.

Results

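The Slc25 genes encode the mitochondrial carriers, and their lactylated histone peaks were followed in a mouse neuroblastoma line. The members were every protein-coding gene of the GRCm38.p6 RefSeq table, the assembly that mm10 names, whose symbol is Slc25a followed by a number. There were 47 of them among 21887 protein-coding genes. The mark was H4K12la, lactylation of lysine 12 on histone H4, mapped by CUT&Tag in Neuro2a cells, in which an antibody directs the transposase Tn5 to cut and tag the DNA beside the mark. One library came from cells given 25 mM lactate and 1 from cells given NaCl, the control. All cells were Neuro2a grown in DMEM with serum on collagen-coated plates, no genetic change is named for either group, and the treatment time and NaCl amount were not given in the sources used here. Whether H4K12la regulates transcription is the question of the series, whose title speaks of POMC neurons and Fam172a, whereas both libraries are from this cultured line. With 1 library per group there is no replicate error and no test was run, so each difference below is one between these 2 libraries.

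Carriers of the Slc25 family are small proteins of the inner mitochondrial membrane, built of a repeated pair of membrane helices, and most of them swap a solute of the matrix for one of the intermembrane space. They bring ADP and phosphate to ATP synthase and send ATP out, move citrate, malate, aspartate and other intermediates, and supply the matrix with cofactors, nucleotides and iron. Lactate that a cell oxidises to pyruvate leaves electrons on cytosolic NADH. The malate-aspartate shuttle, which uses the oxoglutarate carrier Slc25a11 and the aspartate-glutamate carriers Slc25a12 and Slc25a13, takes such electrons into mitochondria in neural cells.

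The lactate list held 39768 peaks covering 12.3 Mb and the control list 46592 peaks covering 11.7 Mb. Their genome-wide backgrounds, as worked out from the peaks, were 3.06 and 2.96 reads, within 3.43% of each other. This stands for relative depth only if both libraries were called with the same settings, which were not given. Peaks were called in each library on its own, so a fold is a summit over its local background and the lists share no scale of total H4K12la. The lowest summit of any peak was 11 reads in either library. A gene without a peak may still hold signal, and more than 11 reads where its local background is high. At Slc25a39, for example, 23 lactate reads over a local background of 8.70 reached a −log10 q of only 2.17. Of 11 markers of neuroblastoma cells, 4 (36.4%) had a gene-end peak in the lactate library against 3 (27.3%) in the control library. Th, Dbh and Mycn were among those with none in either. Of 6 markers of unrelated cell types, 0 had one in either library.

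The stretches below are the 200 bases before the annotated start of 6 carrier genes, read from RefSeq for GRCm38.p6, 5′ to 3′ on the gene's strand, with each CpG in capitals. They were chosen to show 1 gene with a peak in both libraries (Slc25a16), 2 with a peak in the lactate library alone (Slc25a5 and Slc25a36), the only gene with a peak in the control library alone (Slc25a33) and 2 with none at their ends (Slc25a31 and Slc25a21). The runs lie at chr10:62920433-62920632 on the plus strand for Slc25a16, chrX:36795397-36795596 on the plus strand for Slc25a5 and chr9:97111042-97111241 on the minus strand for Slc25a36. Those of Slc25a33, Slc25a31 and Slc25a21 lie at chr4:149774268-149774467 (minus), chr3:40708671-40708870 (plus) and chr12:57197473-57197672 (minus).
Slc25a16: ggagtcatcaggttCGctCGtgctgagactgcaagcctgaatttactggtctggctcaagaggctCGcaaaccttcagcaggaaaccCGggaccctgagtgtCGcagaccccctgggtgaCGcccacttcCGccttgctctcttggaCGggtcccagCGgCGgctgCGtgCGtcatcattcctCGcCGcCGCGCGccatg
Slc25a5: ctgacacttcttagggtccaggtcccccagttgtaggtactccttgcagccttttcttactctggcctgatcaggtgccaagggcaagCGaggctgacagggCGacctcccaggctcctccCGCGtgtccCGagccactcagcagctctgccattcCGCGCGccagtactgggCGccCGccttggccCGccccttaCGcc
Slc25a36: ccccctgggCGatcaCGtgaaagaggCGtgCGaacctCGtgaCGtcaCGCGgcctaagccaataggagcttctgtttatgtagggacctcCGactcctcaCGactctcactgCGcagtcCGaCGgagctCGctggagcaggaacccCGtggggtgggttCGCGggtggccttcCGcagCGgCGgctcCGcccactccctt
Slc25a33: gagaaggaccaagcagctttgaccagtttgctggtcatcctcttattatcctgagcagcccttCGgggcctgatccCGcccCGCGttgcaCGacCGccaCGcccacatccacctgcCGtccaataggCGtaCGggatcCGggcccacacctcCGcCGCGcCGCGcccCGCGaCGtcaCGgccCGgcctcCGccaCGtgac
Slc25a31: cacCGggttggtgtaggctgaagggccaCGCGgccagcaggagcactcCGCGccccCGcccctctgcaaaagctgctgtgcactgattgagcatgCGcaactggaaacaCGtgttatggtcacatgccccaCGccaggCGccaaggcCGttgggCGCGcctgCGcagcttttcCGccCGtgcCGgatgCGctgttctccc
Slc25a21: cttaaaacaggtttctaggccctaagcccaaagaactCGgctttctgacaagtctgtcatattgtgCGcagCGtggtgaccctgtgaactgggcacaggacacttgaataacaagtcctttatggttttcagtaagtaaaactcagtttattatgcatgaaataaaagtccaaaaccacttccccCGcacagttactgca
The CpG counts in these runs were 17, 12, 21, 23, 18 and 4 in the order shown. The runs of Slc25a36, of Slc25a33 and of the uncalled Slc25a31 carry more CpG than that of Slc25a16, whose lactate peak is the tallest of the family. Slc25a21 stands apart with few CpG and 43.5% G and C, against 63.5% to 68% in the other 5 runs.

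A gene counted as called in a library when at least 1 bp of a peak lay within 1 kb of either annotated gene end. Of the 47 carrier genes, 31 (66.0%) were called in the lactate library, against 44.8% of all protein-coding genes there, and 21 (44.7%) in the control library, against 32% of all genes. Both libraries called 20 carriers (42.6%, with 28.6% over all genes). The lactate library alone called 11 (23.4%, with 16.2% over all genes). The control library alone called 1, Slc25a33 (2.13%, with 3.34% over all genes). Neither library called 15 (31.9%, with 51.9% over all genes). The authors' q is a peak's p-value within its own library, corrected for multiple testing. At a −log10 q of at least 5, 20 carriers (42.6%) had a lactate peak and 6 (12.8%) a control peak, against 24.1% and 8.53% of all genes. In that stricter count 5 of the 11 lactate-only carriers remained, namely Slc25a5, Slc25a11, Slc25a30, Slc25a36 and Slc25a51 (10.6% of carriers, with 4.25% over all genes). The carriers' shares stood above those of all genes in each library, with no test of that difference, and their one-library calls lay mainly on the lactate side, as they did over all genes.

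**Figure D1:**
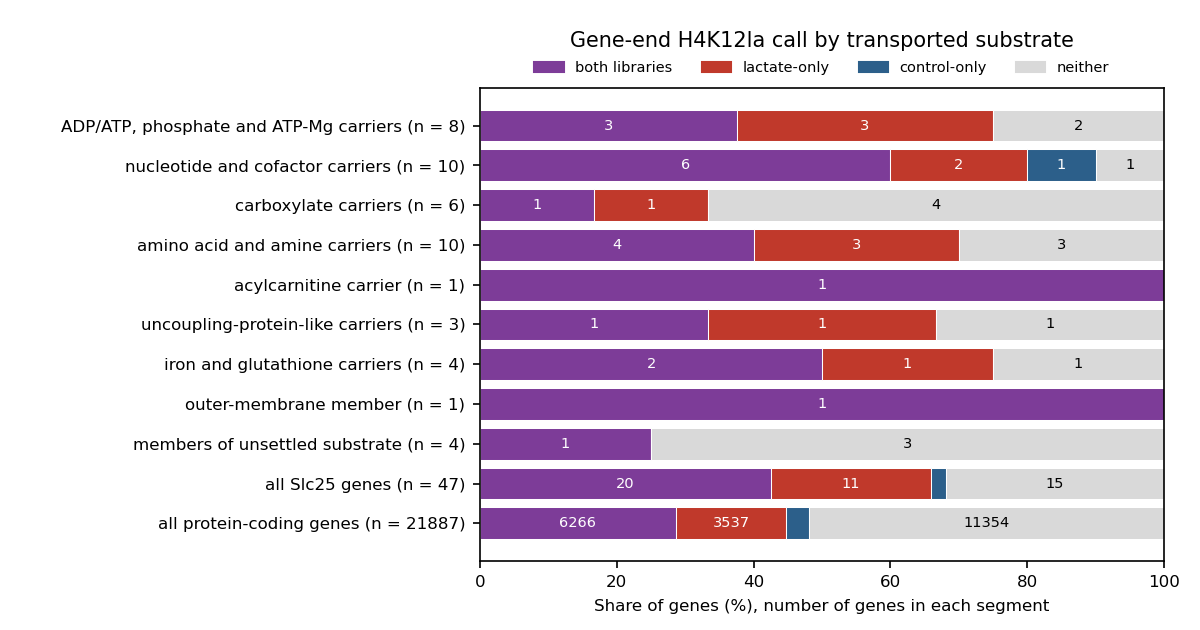
Share of genes (x axis, percent) with a gene-end H4K12la peak in both libraries, lactate-only, control-only or in neither, for each substrate group of Slc25 genes, for all 47 and for all 21887 protein-coding genes. Numbers in the bars count genes. The nucleotide and cofactor carriers have 6 of 10 genes called in both libraries, with 28.6% over all genes. Of the 6 carboxylate carriers, 4 are called in neither, with 51.9% over all genes.

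In the 20 carriers called in both libraries, the best peak, the one of highest fold at the gene's ends, had a median of 30 reads at its summit in the lactate library (16 to 41) and 15 in the control library (11 to 26). The lactate summit held more reads in 19 of the 20, and 94.5% of all genes called in both did so. The median ratio of lactate to control reads was 1.78 in the carriers (0.842 to 2.43) and 1.55 over all such genes. The deposited fold was higher in the lactate library in 15 of the 20 carriers, against 52.5% over all genes, with medians of 4.39 and 3.63 in the lactate and control libraries. Over all genes called in both, the median folds were 3.98 and 3.83. The lactate peak was wider in 19 of 20 (84.3% over all genes), with a median of 667 bp in the lactate library and 200 bp in the control library. The best peaks of the libraries overlapped in 20 of 20 (90.3% over all genes). The 95% Poisson intervals of the summit reads cover counting error only. The lactate interval lay wholly above the control one in 1 of 20, Slc25a53 (2.31% over all genes). There the intervals were barely apart, the lactate one starting at 23.55 reads and the control one ending at 23.49, with no allowance for depth. The local background under the summit moved with the reads, at a median of 6.44 reads in the lactate library against 3.63 in the control library, and its part in the higher reads was not tested. Slc25a27 was the exception in both reads and width.

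**Figure D2:**
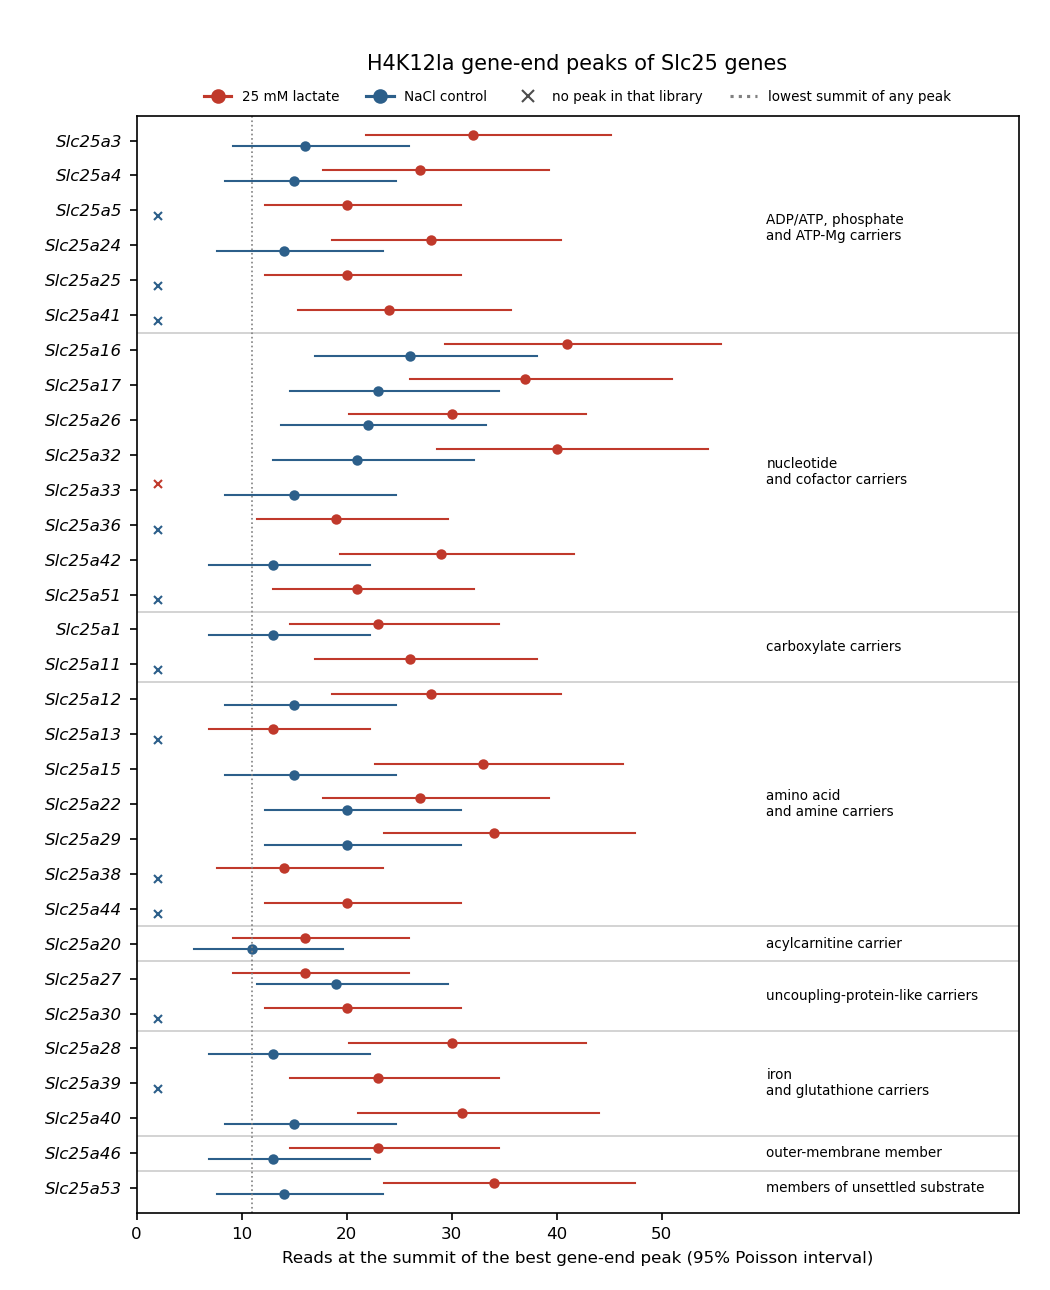
Reads at the summit of the best gene-end H4K12la peak (x axis, whole reads recovered from the deposited values) for 31 of the 32 Slc25 genes called in at least 1 library, grouped by substrate. Points are single libraries, bars are 95% Poisson intervals for counting error, crosses mark no peak, and the dotted line is the lowest summit of any peak, 11 reads. The lactate point lies to the right of the control point in 18 of the 19 genes shown that were called in both, and the intervals of Slc25a53 are barely apart.

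A fixed rule picked the carriers called in 1 library alone, 9 of the 10 of highest fold among those called in both and those whose only peaks lie inside the gene. Summit reads are given for each and the fold for all but Slc25a37, with the place and −log10 q for some. The lactate-only carriers under a −log10 q of 5 ran from 2.17 (Slc25a39) to 4.06 (Slc25a41). The other 10 called in both had 16 to 34 summit reads in the lactate library and 11 to 20 in the control library, with lactate to control ratios of 1.35 to 2.31. Their folds were 2.77 to 4.51 in the lactate library and 2.67 to 3.65 in the control library. Any of them named below was picked after its values were seen.

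The ADP/ATP, phosphate and ATP-Mg carriers feed and drain ATP synthase and set the adenine nucleotide content of the matrix. The lactate library called 6 of these 8 genes, with 44.8% over all genes. The control library called 3 (37.5%), with 32% over all genes. Slc25a24, a calcium-regulated ATP-Mg/phosphate carrier, had the highest fold of the family in the lactate library. Its peak there at chr3:109123012-109123515 held 28 reads (95% interval 18.6 to 40.5) at a fold of 5.89, and the control peak at chr3:109123205-109123403 held 14 reads (7.65 to 23.5) at a fold of 3.79. The intervals overlap. Slc25a3, the phosphate carrier, had 32 lactate and 16 control reads, and Slc25a4, the ADP/ATP carrier of heart and muscle, had 27 lactate and 15 control reads. Slc25a4 had the lower fold in the lactate library, 2.77 against 3.65 in the control library, with a local background of 9.12 reads in the lactate library against 3.38 in the control.

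Slc25a5, the ADP/ATP carrier of dividing cells, was called in the lactate library alone. Its peak at chrX:36795478-36795774 spans the annotated start and overlaps the run shown above. It had 20 reads (12.2 to 30.9), a fold of 5.17 and a −log10 q of 7.12. The ATP-Mg carriers Slc25a25 and Slc25a41 were also lactate-only. Slc25a25 had 20 reads (12.2 to 30.9) at a fold of 3.42 at chr2:32451676-32452347, upstream of its outermost start. Slc25a41 had 24 reads (15.4 to 35.7) at a fold of 3.19 at chr17:57032186-57032381, in a window it shares with Khsrp. Of these 3 lactate-only genes Slc25a5 had the highest fold and the lowest local background, 3.06 reads against 5.14 at Slc25a25 and 6.84 at Slc25a41. Slc25a31, the ADP/ATP carrier of testis, and the ATP-Mg carrier Slc25a23 had no peak in either library.

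The nucleotide and cofactor carriers hold the tallest peaks of the family. The lactate library called 8 of these 10 genes, with 44.8% over all genes, and the control library 7, with 32% over all genes. Of the family's 6 control peaks with a −log10 q of at least 5, these genes held 5. Slc25a16, linked to coenzyme A uptake, had 41 reads (29.4 to 55.6) at a fold of 5.04 in the lactate library and 26 (17 to 38.1) at a fold of 4.86 in the control library. Its peaks, at chr10:62920305-62921145 in the lactate library and chr10:62920389-62920725 in the control library, both span the start and cover the whole run shown above. Slc25a32, the folate and FAD carrier, had 40 reads (28.6 to 54.5) in the lactate library against 21 (13 to 32.1) in the control library, at folds of 4.78 and 4.21. Its best peak also lies at an end of the neighbouring gene Dcaf13.

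Slc25a17, a peroxisomal member that carries coenzyme A, FAD and NAD+, had 37 reads (26.1 to 51) in the lactate library against 23 (14.6 to 34.5) in the control library, at folds of 4.63 and 4.49. Slc25a26, which imports S-adenosylmethionine, had 30 reads (20.2 to 42.8) and 22 (13.8 to 33.3) in the lactate and control libraries, at folds of 4.22 and 4.53. For each of these genes the intervals of the libraries overlap, and in Slc25a26 the fold was lower in the lactate library although the reads were higher.

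Slc25a36 and Slc25a33 are closely related pyrimidine nucleotide carriers, and their calls fell on opposite sides. Slc25a36 had a lactate peak of 715 bp across its start at chr9:97110719-97111433, with 19 reads (11.4 to 29.7), a fold of 4.29 and a −log10 q of 5.29, and no control peak at its ends. Slc25a33 had a control peak of 101 bp just before its start at chr4:149774295-149774395, with 15 reads (8.40 to 24.7), a fold of 3.07 and a −log10 q of 2.22, and no lactate peak. Its summit lies at −53 bp from the start, inside the run shown above. Slc25a51, the NAD+ carrier, was lactate-only with 21 reads (13 to 32.1) at a fold of 4.17 at chr4:45408523-45409031. Slc25a47, a liver carrier, had no peak in either library.

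Carboxylate carriers link the citric acid cycle to the cytosol, and 4 of these 6 genes (66.7%) were without a gene-end call, with 51.9% over all genes. The lactate library called 2 (33.3%, with 44.8% over all genes) and the control library 1 (16.7%, with 32% over all genes). Slc25a1, which exports citrate for lipid synthesis, was called in both with 23 lactate and 13 control reads, the smallest control −log10 q among the carriers called in both (1.42). Slc25a11, the oxoglutarate/malate carrier, was lactate-only with 26 reads (17 to 38.1), a fold of 3.59 and a −log10 q of 5.42. Its peak at chr11:70646806-70647036 also lies at an end of Rnf167, whose start on the opposite strand is within 1 kb. The dicarboxylate carrier Slc25a10, the oxodicarboxylate carrier Slc25a21, and Slc25a34 and Slc25a35, which resemble the yeast oxaloacetate carrier, were not called.

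Amino acid and amine carriers were called in 7 of 10 genes in the lactate library and 4 of 10 in the control library. Slc25a12 and Slc25a13 encode the aspartate-glutamate carriers aralar and citrin, of which aralar is the main form in brain. Slc25a12 had 28 reads (18.6 to 40.5) at a fold of 4.87 in the lactate library and 15 (8.40 to 24.7) at a fold of 4.04 in the control library. Its peaks at chr2:71367475-71367887 and chr2:71367600-71367790, in the same order, both span the start. Slc25a13 was lactate-only with 13 reads (6.92 to 22.2), the fewest of any lactate-only carrier, at a fold of 3.45 at chr6:6216966-6217137. At a −log10 q of 2.59 it was not called under the stricter threshold of 5.

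The glycine carrier Slc25a38, needed for heme synthesis in red cell precursors, was lactate-only with 14 reads (7.65 to 23.5) at a fold of 3.69 at chr9:120110773-120110940. Slc25a44, a branched-chain amino acid carrier, was lactate-only with 20 reads (12.2 to 30.9) at a fold of 3.52 at chr3:88425066-88425352. Both libraries called the ornithine carrier Slc25a15 (33 lactate and 15 control reads), the basic amino acid carrier Slc25a29 (34 lactate and 20 control reads) and the glutamate carrier Slc25a22 (27 lactate and 20 control reads). The peaks of Slc25a22 lie beyond its 3′ end at Cend1, and its 3 annotated starts had no peak within 1 kb in either library. The ornithine carrier Slc25a2, the second glutamate carrier Slc25a18 and the choline carrier Slc25a48 were not called.

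Among the uncoupling-protein-like carriers, Slc25a27 (UCP4, a brain form) ran against the rest of the family. It had 16 reads (9.15 to 26) at a fold of 4.19 in the lactate library and 19 (11.4 to 29.7) at a fold of 5.05 in the control library, with overlapping intervals. Its peaks, at chr17:43666828-43667293 in the lactate library and chr17:43666746-43667219 in the control library, also lie at an end of Cyp39a1. Slc25a30 was lactate-only with 20 reads (12.2 to 30.9), a fold of 5.17 and a −log10 q of 7.12 at chr14:75786703-75787075, across its start, though with windows of 3 kb it was called in both libraries. Slc25a14, a second brain form, was not called.

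The iron and glutathione carriers and the remaining members completed the family. The mitoferrin gene Slc25a28, which brings iron into mitochondria outside red cell precursors, had 30 lactate and 13 control reads and the widest lactate peak of the family, 1107 bp against 200 bp in the control library. The red cell mitoferrin gene Slc25a37 had no gene-end peak. The glutathione carrier Slc25a39 was lactate-only with 23 reads (14.6 to 34.5) at chr11:102407567-102407718, where the local background was 8.70 reads and the fold was 2.47, the lowest of any lactate-only carrier. The summit of this peak lies at −106 bp from the annotated start, and with the 5′ end alone the gene was still lactate-only. The peak only touches the 1 kb window of the outer gene bound. With a window of 500 bp, or with the summit in the window required, the gene was called in neither library. Its relative Slc25a40 was called in both, with 31 lactate and 15 control reads. The acylcarnitine carrier Slc25a20, which brings fatty acids in for oxidation, had 16 lactate and 11 control reads.

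Slc25a46 sits in the outer membrane and takes part in mitochondrial fission and fusion. It had 23 reads (14.6 to 34.5) at a fold of 5.22 in the lactate library and 13 (6.92 to 22.2) at a fold of 3.54 in the control library. Of the 4 members of unsettled substrate, Slc25a53 alone was called. It had 34 reads (23.5 to 47.5) at a fold of 5.16 at chrX:137037894-137038603 in the lactate library and 14 (7.65 to 23.5) at a fold of 3.62 at chrX:137038047-137038472 in the control library. Its lactate to control ratio of 2.43 was the highest of the family, and the summits of the libraries were 2 bp apart. Slc25a43, Slc25a45 and Slc25a54 had no gene-end peak.

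Start sites on a known strand were available for 36 of the 47 carriers, and nearly all their gene-end peaks lay at the 5′ end. The best lactate peak was there in 22 of 23 called carriers, against 92.8% of all called genes with a start site, and the best control peak in 15 of 16, against 90.9%. Slc25a22 was the exception in both libraries. The median summit lay at −18.5 bp from the start in the lactate library (−779 to 500 bp, positive into the gene) and at −53 bp in the control library (−525 to 427 bp). The peak spanned the start in 14 of 22 carriers in the lactate library and in 7 of 15 in the control library. In the 20 carriers called in both, the summits of the libraries were a median of 63 bp apart (2 to 474 bp), against 108 bp over all genes called in both. In 5 of them the gap passed 300 bp, namely Slc25a3, Slc25a4, Slc25a27, Slc25a42 and Slc25a46.

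**Figure D3:**
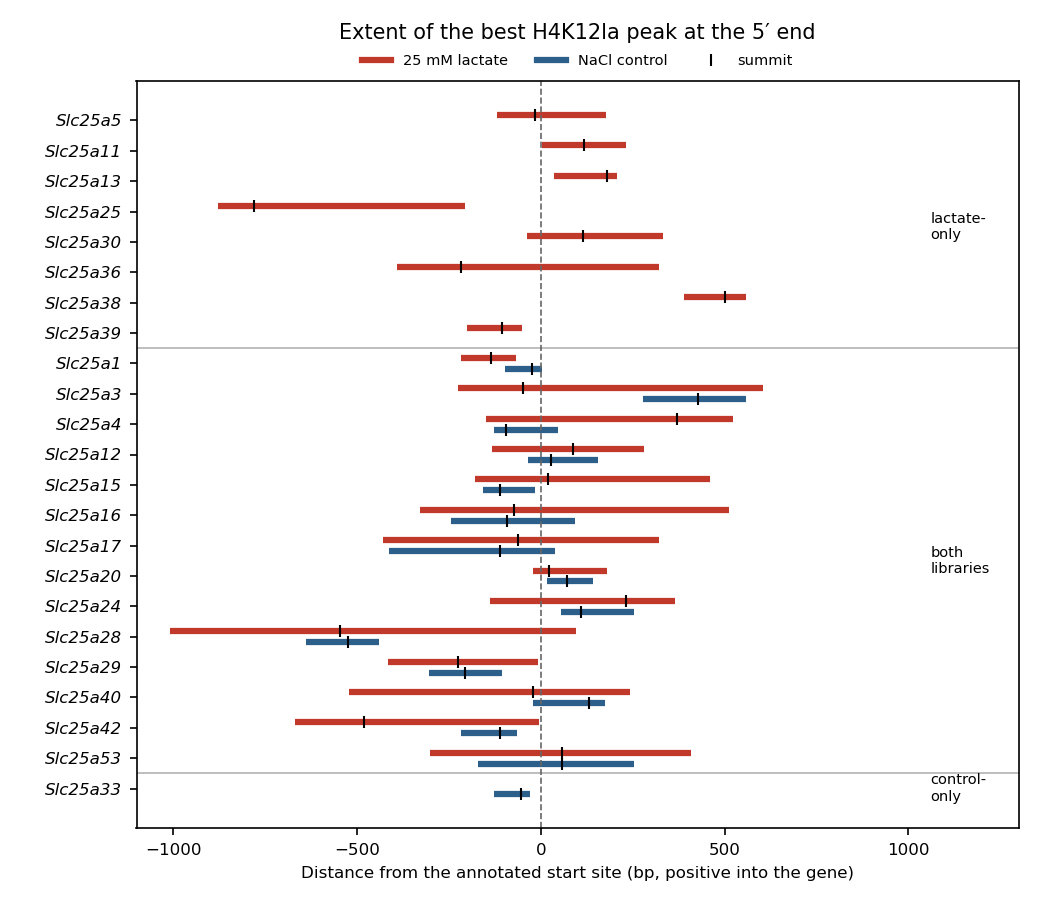
Extent of the best gene-end H4K12la peak around the annotated start (x axis, distance in bp, positive into the gene) for the Slc25 genes whose best peak lies at the 5′ end, with the lactate peak above the control peak and the summit as a black tick. The lactate peaks are the wider ones, 14 of 22 of them crossing the start, and that of Slc25a28 reaches 1107 bp.

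Counted over all their gene ends, the carriers had 39 lactate peaks covering 17955 bp, a mean of 460 bp a peak, and 26 control peaks covering 7005 bp, a mean of 269 bp. Windows of 19 of the 47 carriers meet a window of another gene. The best lactate peak also lay at an end of another gene for 6 carriers (Slc25a11, Slc25a22, Slc25a27, Slc25a32, Slc25a40 and Slc25a41), and the best control peak did so for 4 of these. To which of the neighbours such a peak belongs cannot be told apart. Slc25a53 has a second annotated start inside its outermost bounds, on chromosome X at 136993032. There the lactate peak at chrX:136992899-136993491 held 26 reads (17 to 38.1) at a fold of 4.22 and the control peak at chrX:136993144-136993428 held 18 (10.7 to 28.4) at a fold of 4.50. Unlike at its outer start, where the intervals were barely apart, the lactate peak there had the lower fold and the intervals overlapped.

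Inside the gene bodies, away from both ends, the libraries were alike in number. A body peak was found in 12 carriers (25.5%) in the lactate library, with 31.2% over all genes, and in 13 carriers (27.7%) in the control library, with 28.7% over all genes. There were 22 lactate body peaks, of which 7 (31.8%) overlapped a control peak, and 25 control body peaks, of which 8 (32%) overlapped a lactate peak. Over the body peaks of all genes these shares were 37.8% and 38.8%. Their summits had medians of 15.5 reads in the lactate library against 15 in the control library, and median folds of 3.12 and 3.27. Slc25a12 held the most, 8 in the lactate library against 6 in the control library. Slc25a33, the control-only gene, had 3 control body peaks and 0 lactate ones, the tallest control one with 26 reads (17 to 38.1). Slc25a26 had 2 in the lactate library against 5 in the control library. Body peaks can lie at an inner annotated start, as at Slc25a53 and at Slc25a25. The lactate body peak of Slc25a25, at chr2:32431187-32431386, lies just before its start at 32431151. It held 19 reads (11.4 to 29.7), and no control peak lay within 1 kb of that start.

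For 3 carriers the only peaks lay in the gene body. Slc25a54 had overlapping ones, at chr3:109084484-109084967 with 20 reads (12.2 to 30.9) and a fold of 5.17 in the lactate library and at chr3:109084624-109084925 with 18 reads (10.7 to 28.4) and a fold of 4.80 in the control library. Slc25a21 had 1 control peak, at chr12:56820451-56821110, with 18 reads (10.7 to 28.4) and a fold of 4.80. Slc25a37 had 1 in each library at separate places, at chr14:69267410-69267684 with 15 reads (8.40 to 24.7) in the lactate library and at chr14:69284406-69284519 with 11 reads (5.49 to 19.7) in the control library. The other 12 uncalled carriers had no peak in either library. They were Slc25a2, Slc25a10, Slc25a14, Slc25a18, Slc25a23, Slc25a31, Slc25a34, Slc25a35, Slc25a43, Slc25a45, Slc25a47 and Slc25a48.

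Promoter sequence from RefSeq (250 bases before to 50 after the start) was at hand for the same 36 carriers and for 17492 genes in all. Carriers called in the lactate library had a median of 24 CpG per promoter (6 to 47, n = 23), and carriers called in neither library had 9 (1 to 22, n = 12). Over all genes the same medians were 21 and 5. Within the carriers of at least 15 CpG, the lactate library called 20 of 24 (83.3%) and the control library 13 of 24 (54.2%), against 70.4% and 48.8% of all genes with as many CpG. Of the 9 carriers with 5 to 14 CpG, each library called 3 (33.3%). Over all genes of that class the lactate library called 40.1% and the control library 28.1%. Of the 3 carriers with 4 or fewer, 0 were called in either, against 9.42% and 10.5% of all such genes. The part of CpG content in the calls was not tested. The uncalled carriers with at least 15 CpG were Slc25a10, Slc25a31 and Slc25a54, with 15, 22 and 15.

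**Figure D4:**
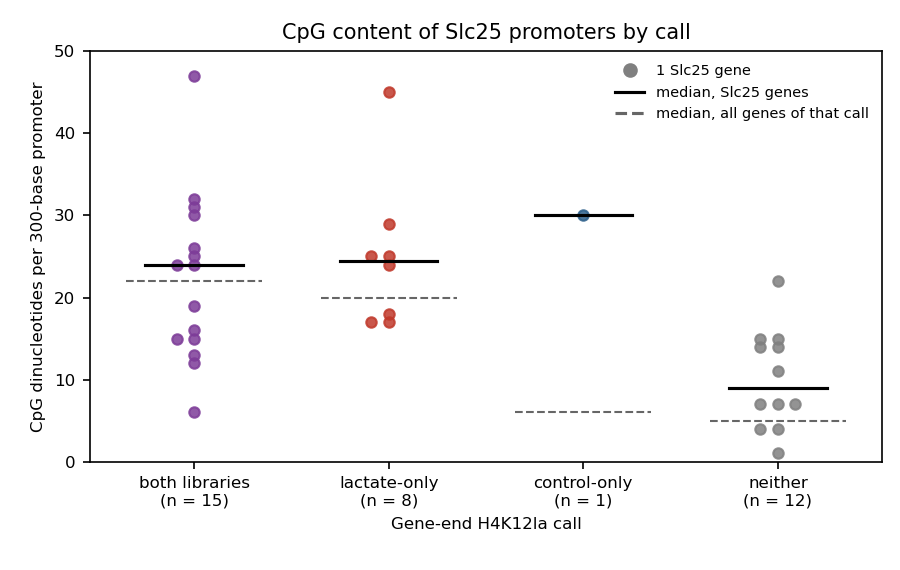
CpG dinucleotides in the 300-base promoter (y axis, count) of the 36 Slc25 genes with a promoter entry, by gene-end call (x axis). Each point is 1 gene, the solid line is the median of the Slc25 genes and the dashed line the median of all genes with that call. The uncalled carriers have a median of 9 CpG, and those with peaks in both libraries and those called lactate-only have medians of 24 and 24.5.

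Motifs were searched on both strands of these promoters, and a match says only that the letters are there. The GC box GGGCGG was found in 30 of 36 carrier promoters (83.3%), against 46.3% of all promoters, and CCAAT in 17 of 36 (47.2%), against 39.2%. The ETS core CCGGAAG was in 7 (19.4%, against 11.9%) and the E-box CACGTG in 6 (16.7%, against 7.91%), and the E-box can be seen above in the runs of Slc25a36, Slc25a33 and the uncalled Slc25a31. The cyclic AMP element TGACGTCA was in 1, Slc25a36 (2.78%, against 2.33%). TATAAA was in 1, Slc25a18 (2.78%, against 13.3%). The letters searched for NRF1 (CGCATGCG), for ERRA (TCAAGGTCA) and for YY1 and GFY were in 0 of 36, against 2.55%, 0.332%, 1.27% and 0.44% of all promoters. Most of these letter strings hold a CpG themselves, so the counts of motifs and of CpG are not independent.

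The uncoupling proteins and the Mtch proteins belong to the same family under other symbols. Ucp2 was called in both libraries with 24 lactate and 14 control reads, and Mtch2 with 32 lactate and 15 control reads, at opposite ends of the gene. Ucp1, the uncoupling protein of brown fat, Ucp3 and Mtch1 had no gene-end peak. A list of 22 genes of carrier import and of other transport across the mitochondrial membranes had a larger share called than the carriers. It held 18 genes called in both libraries, 3 lactate-only (Mpc1, Sfxn3 and Tomm40), 0 control-only and 1 called in neither, Timm22, which forms the carrier translocase of the inner membrane. All-gene shares for the first 3 of these calls were 28.6%, 16.2% and 3.34%. The lactate summit held more reads in 18 of 18 and had the higher fold in 11 of 18, beside 94.5% and 52.5% of all genes called in both. The tallest lactate peak was at Vdac3, a channel of the outer membrane. It held 45 reads (32.8 to 60.2) in the lactate library against 21 (13 to 32.1) in the control library. These intervals were barely apart, with no allowance for depth. In this list the lactate interval lay wholly above the control one in 1 of 18 (5.56%), against 2.31% over all genes called in both. Mpc1 and Mpc2 together form the mitochondrial pyruvate carrier. Mpc2 had 40 reads (28.6 to 54.5) in the lactate library against 22 (13.8 to 33.3) in the control library, while Mpc1 had 23 (14.6 to 34.5) in the lactate library and no control peak.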

How the data were processed

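The submitters' processing notes name MACS2, BWA, deepTools and the build mm10. Tool versions, calling settings and any background library or spike-in were not given in the sources used here. For each library the authors deposited 1 peak list, with a fold (ratio of summit pileup to local background), a −log10 p, a −log10 q, a score of 10 times the −log10 q and a summit offset. The lowest deposited −log10 q was 1.30, a q-value threshold of 0.05. Fold and −log10 q are the authors' values.

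Of each list 6 lines off chromosomes 1 to 19, X and Y were left out. Summit reads and local background were solved from each peak's fold and −log10 p, and a whole number of reads met the −log10 p within 0.001 in 39768 of 39768 lactate and 46591 of 46592 control peaks. The solution and the gene windows were tested on simulated data. Poisson intervals (95%) cover counting error only, since amplified reads are not independent molecules. Windows of 1 kb were placed at both gene ends, and a body peak met neither window. Strand and start sites came from the RefSeq promoter table, which matched 36 of the 47 carriers. The outermost start was used for promoter content and distances. CpG classes were chosen after the CpG counts were seen. The members, gene lists and substrate groups were chosen with earlier results of these data known. With 1 library per group no test was run. Genes picked by the fixed rule were the 11 lactate-only and 1 control-only members, the 10 of highest fold called in both and the 3 with body peaks alone. The values of 1 of these 10 are not reported here, but it is counted in all totals. The alternatives covered a stricter threshold, equal list lengths, other windows and overlaps, the 5′ end alone and members with windows of their own. Python 3.11.15, numpy 2.4.6, pandas 2.3.3, scipy 1.17.1 and matplotlib 3.10.9 were used.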

Additional observations from a re-analysis of the deposited data

How the results depend on the processing

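Raising the −log10 q to 5 in each list left 5 carriers called in both libraries, 15 lactate-only and 26 in neither, against 20, 11 and 15 in the report. Of all genes 7.61%, 16.5% and 74.9% were then so called. The same threshold left body peaks in 2 lactate and 4 control carriers, against 12 and 13. More lactate reads were then found in 5 of 5. With that threshold on the called side and no peak at all on the other, 5 carriers were lactate-only and 0 control-only. A window of 3 kb gave 3 control-only carriers, turned the lactate-only Slc25a30, Slc25a38 and Slc25a41 to both, and made Slc25a10, Slc25a45 and Slc25a48 lactate-only. A window of 500 bp lost the call of Slc25a39 and the control call of Slc25a46. Among the 28 carriers whose windows meet no other gene's, 12 were called in both and 5 were lactate-only. The all-gene shares for this setting and for the 3 kb window were not worked out. Whether the carriers' lactate-only share still stood above that of all genes there is therefore not shown. Under every alternative listed that gives both counts, lactate-only carriers outnumbered control-only ones. With the threshold of 5 in both lists the control-only carrier was Slc25a27 and not Slc25a33. A call in 1 library can rest on a few reads near the lowest summit of 11, and no alternative replaces a second library. No paired analysis was possible because each group has 1 library and no fit was made.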
